A study of Glycine max with 6 samples.

Results

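Transcripts of 5 calcium-signalling genes were examined in soybean nodules formed under low and high phosphate (Pi) supply. They are 2 genes for calcium-binding proteins of the CML19 type, 1 gene for a calmodulin-like protein 1-like protein, 1 gene for a calmodulin-binding transcription activator (CAMTA) and 1 gene for annexin D5. The 5 genes were taken by identifier from 39712 genes listed in at least 1 library, and all 5 were listed in every library. They were selected because the same LP and HP libraries had shown a difference for them, so their LP to HP differences are given below as a description, with no test. Messenger RNA was sequenced from 3 P-deficient (LP) and 3 P-sufficient (HP) nodule samples. LP plants received 25 and HP plants 500 units of KH2PO4, which the sample labels give in mM and the methods of the paper in µM. Both treatments used the soybean genotype YC03-3, inoculated with the rhizobium strain USDA110 and grown hydroponically in a solution that also held nitrate and ammonium. Nodules over 3 mm across were harvested on day 25 after transplanting, and nodules of 2 plants were pooled into each sample. The nodule was sampled whole, so more cells of a type and more RNA per cell cannot be told apart. Only 1 genotype was grown, and the p-values below measure only the spread between these pooled samples.

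Calcium ions act as a second messenger in plant cells. A rise in calcium is read by proteins with EF-hand motifs, such as calmodulin and the calmodulin-like proteins (CMLs), which change shape when they bind it and then act on partner proteins. CAMTA proteins are transcription factors that bind calmodulin, whereas annexins bind calcium and membrane phospholipids directly. In legume roots, oscillations of nuclear calcium are an early step of the symbiosis with rhizobia, and calcium is also used in defence, wounding and nutrient signalling.

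The values deposited by the authors are FPKM, the fragments assigned to a gene per kilobase of its length, scaled to the number of fragments mapped in the library. FPKM is corrected for length, so levels of different genes can be compared on it. The whole numbers of fragments behind the FPKM values were recovered from their smallest common steps. They summed to between 16333298 and 17333523 in the LP libraries and between 16708735 and 17325038 in the HP libraries. Pearson correlations of log2(FPKM + 0.1) across genes were 0.966 to 0.977 between libraries of 1 treatment and 0.911 to 0.936 between treatments. A minimum of 0.5 FPKM in any 3 of the 6 libraries left 31181 genes to test, and over these the median log2 difference (LP minus HP) was -0.18. It was -0.00038 after median-of-ratios scaling, so every log2 difference below stands on a scale whose middle lies slightly under 0. Names of the 5 genes come from protein matches in the study's list of differing genes, while a list in the paper's main text pairs several of these identifiers, and several of the family and kinase genes described further on, with other descriptions. All levels and directions given here come from the deposited FPKM values of each identifier. For Glyma.17G128900, Glyma.05G085200 and Glyma.05G178200, the matched protein is in the RefSeq table of the assembly Glycine_max_v4.0, as LOC100816563, LOC100786354 and LOC100798875, each on the chromosome that the files give. Leghemoglobin and uricase-2, the defining products of infected and uninfected nodule cells, carry no name in the sources used here, so the tissue label was not checked with them. Of the cell type marker lists, 1 described gene each was found for nodulin-26 and for the cellulose synthases of secondary walls. Glyma.15G087300 (nodulin-26-like) had 0 to 0.404 FPKM in LP libraries and 0.726 to 2.47 FPKM in HP libraries, and Glyma.04G142700 (secondary wall cellulose synthase) had 0.944 to 1.18 FPKM in LP libraries and 0.287 to 0.632 FPKM in HP libraries. Both were found by description in the study's list of differing genes, so a shift with the treatment was a condition of finding them. Both genes were low in level and were matched by name only, so their values are not read as amounts of a cell type. Their part in the results was not tested.

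**Figure D1:**
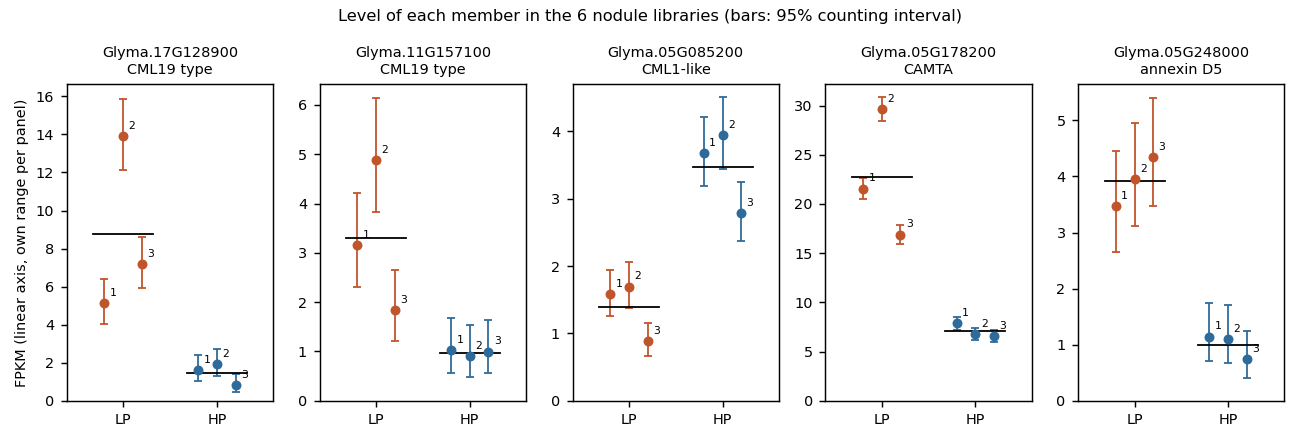
FPKM of the 5 genes (vertical axis, linear, own range in each panel) in the LP libraries (left, orange) and HP libraries (right, blue). Points are libraries numbered by replicate, vertical bars are 95% counting intervals and horizontal lines are treatment means. LP and HP points do not overlap in any panel. The same held, in either direction, for 44.5% of all genes tested, and the 5 genes were selected for a difference. LP replicate 2 lies far above the other LP libraries for Glyma.17G128900.

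Among the calcium sensors, the 2 genes of the CML19 type had higher levels in LP nodules and the calmodulin-like protein 1-like gene had a lower one. In Arabidopsis, the protein named CML19 is a centrin, a small EF-hand protein. No sequences were compared here, so whether the soybean genes given this name encode centrins was not tested. Glyma.17G128900 lies on chromosome 17 (positions 10330413 to 10331258, plus strand, Williams 82 assembly 2, version 1), and had 5.14, 13.9 and 7.19 FPKM in LP replicates 1, 2 and 3, against 1.62, 1.91 and 0.822 FPKM in HP replicates 1, 2 and 3. The lowest LP library was thus well above the highest HP library. The log2 difference was 2.46 ± 0.42 (SE, n = 3 each), the largest of the 5 genes in size, and the ratio of the LP mean to the HP mean was 6.02. LP replicate 2 stood apart. Its 95% counting interval, 12.1 to 15.9 FPKM from 221 fragments, lay above those of LP replicate 1 (4.05 to 6.42 FPKM, 77 fragments) and LP replicate 3 (5.94 to 8.63 FPKM, 115 fragments). The HP libraries held 25, 29 and 13 fragments. With a within-treatment SD of 0.66 on the log2 scale, this gene was more variable than 95.7% of the genes tested. The difference was 2.07 to 2.78 on the log2 scale when 1 library at a time was left out.

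The second gene of the CML19 type, Glyma.11G157100, is on chromosome 11 (13891356 to 13892161, plus strand). It reached 3.15, 4.89 and 1.84 FPKM in LP replicates 1, 2 and 3, against 1.02, 0.900 and 0.996 FPKM in HP replicates 1, 2 and 3. HP libraries lay close together, whereas the LP libraries spread over more than the gap that separated the treatments. The log2 difference was 1.56 ± 0.33 (SE, n = 3 each). Counts were small, at 45, 74 and 28 fragments in LP libraries and 15, 13 and 15 in HP libraries, and the interval of LP replicate 3 (1.22 to 2.66 FPKM) overlapped that of HP replicate 1 (0.572 to 1.69 FPKM). The LP replicate 3 interval also overlapped those of HP replicates 2 and 3, which reached up to 1.54 and 1.64 FPKM. Overlap of intervals does not test whether the lowest LP library differs from HP. The gene shares its best protein match with Glyma.04G136200. No sequences were compared, and whether reads were shared between these 2 genes was not tested.

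Glyma.05G085200, the calmodulin-like protein 1-like gene on chromosome 5 (15489208 to 15492400, minus strand), was the only one of the 5 with a lower level in LP nodules. It had 1.58, 1.69 and 0.885 FPKM in LP replicates 1, 2 and 3, against 3.68, 3.95 and 2.79 FPKM in HP replicates 1, 2 and 3. All LP libraries were below all HP libraries, and replicate 3 was the lowest in both treatments. The log2 difference was -1.30 ± 0.27 (SE, n = 3 each), and the LP mean was 0.399 of the HP mean. The libraries held 87, 99 and 52 fragments at LP and 208, 220 and 162 at HP. LP replicate 3 (0.661 to 1.16 FPKM) fell outside the counting intervals of LP replicates 1 and 2, so the spread within LP was larger than counting error.

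The CAMTA gene was the most abundant of the 5 under both treatments and had the firmest counts. Its protein match is a calmodulin-binding transcription activator 3-like protein. CAMTA3 of Arabidopsis restrains defence genes and takes part in responses to cold. Glyma.05G178200 spans positions 36640053 to 36648121 of chromosome 5 on the minus strand. It had 21.6, 29.6 and 16.9 FPKM in LP replicates 1, 2 and 3, against 7.87, 6.80 and 6.54 FPKM in HP replicates 1, 2 and 3. Every LP library held more than the highest HP library, and the HP libraries lay closer together than the LP libraries. The log2 difference was 1.63 ± 0.20 (SE, n = 3 each), a ratio of means of 3.21. Between 1262 and 2201 fragments per library at LP and between 482 and 566 at HP stood behind these values. The 3 LP counting intervals (20.5 to 22.7, 28.4 to 30.9 and 16.0 to 17.8 FPKM for LP replicates 1, 2 and 3) did not overlap each other. The LP libraries thus differed from one another beyond counting error, which does not cover library preparation. The intervals of HP replicate 1 (7.24 to 8.55 FPKM) and HP replicate 3 (5.97 to 7.15 FPKM) did not overlap either.

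Annexin D5, encoded by Glyma.05G248000 on chromosome 5 (42113952 to 42117137, minus strand), gave the tightest LP replicates. Annexins are abundant plant proteins that bind negatively charged lipids when calcium is present. The gene had 3.47, 3.96 and 4.35 FPKM in LP replicates 1, 2 and 3, against 1.14, 1.11 and 0.742 FPKM in HP replicates 1, 2 and 3. LP libraries stood at more than 3 times the highest HP library in each case. The log2 difference was 1.89 ± 0.21 (SE, n = 3 each). With 62, 75 and 83 fragments at LP and 21, 20 and 14 at HP, the counting intervals of the LP libraries overlapped each other, as did those of the HP libraries, and no LP interval reached an HP interval.

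**Figure D2:**
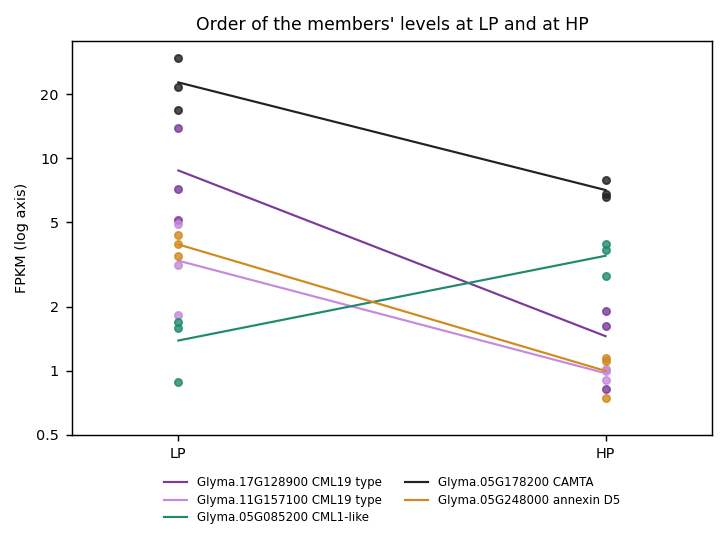
FPKM on a log axis at LP (left) and HP (right). Points are libraries and lines join the treatment means of each gene. The calmodulin-like protein 1-like gene is last at LP and second at HP, while the CAMTA gene is highest at both.

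The order of the levels differed between treatments. At LP the order of mean levels was Glyma.05G178200 (CAMTA, 22.7 ± 6.4 FPKM), Glyma.17G128900 (CML19 type, 8.74 ± 4.58 FPKM), Glyma.05G248000 (annexin D5, 3.92 ± 0.44 FPKM), Glyma.11G157100 (CML19 type, 3.29 ± 1.53 FPKM) and Glyma.05G085200 (calmodulin-like protein 1-like, 1.39 ± 0.44 FPKM), each as mean and SD of 3 libraries. Neighbours in that order did not overlap, except annexin D5 and Glyma.11G157100, whose LP ranges overlapped. At HP the order was Glyma.05G178200 (7.07 ± 0.71 FPKM), Glyma.05G085200 (3.47 ± 0.61 FPKM), Glyma.17G128900 (1.45 ± 0.56 FPKM), Glyma.05G248000 (0.997 ± 0.222 FPKM) and Glyma.11G157100 (0.973 ± 0.065 FPKM). The ranges of the last 3 overlapped. Glyma.17G128900 was above annexin D5 in each of the 3 HP libraries, whereas annexin D5 was above Glyma.11G157100 in 2 of 3, so no order between these last genes can be read. Set against all genes tested, the LP mean of the CAMTA gene was above that of 86.9% of genes and its HP mean above 56.8%. For Glyma.17G128900 the shares were 65.7% at LP and 15.5% at HP, and for the calmodulin-like protein 1-like gene they were 16.8% at LP and 34.8% at HP. Glyma.11G157100 was above 36.1% of genes at LP and 9.07% at HP, and annexin D5 above 41.0% at LP and 9.43% at HP.

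**Figure D3:**
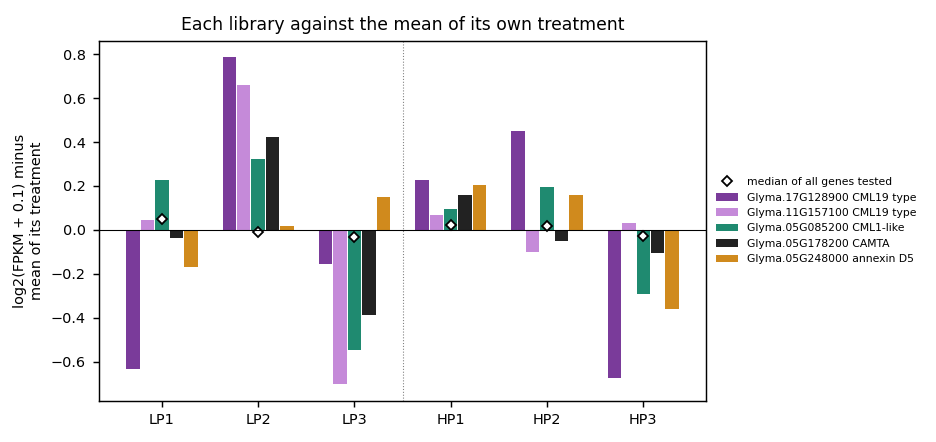
Difference between log2(FPKM + 0.1) in each library and the mean of its own treatment, for the 5 genes (bars) and as the median of all genes tested (diamonds). LP replicate 2 is above 0 in all 5 genes and by 0.32 or more in 4 of them, while the diamonds stay close to 0.

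Within a treatment, several of the 5 genes stood high or low in the same libraries, a comparison that does not use the difference between LP and HP. LP replicate 2 was the highest LP library in 4 of 5 genes, the exception being annexin D5, against 27.3% of all genes tested. Its deviation from the LP mean was 0.79 for Glyma.17G128900, 0.66 for Glyma.11G157100, 0.42 for the CAMTA gene, 0.32 for the calmodulin-like protein 1-like gene and 0.02 for annexin D5 on the log2 scale, whereas the median over all genes tested was -0.0077. The calmodulin-like protein 1-like gene was thus highest in LP replicate 2 although its level was lower at LP than at HP. LP replicate 3 was the lowest LP library in 3 of the 5 genes and in 42.6% of all genes tested. The full order of LP replicate 2, then 1, then 3 was seen in Glyma.11G157100, the calmodulin-like protein 1-like gene and the CAMTA gene, and in 15.6% of all genes tested. HP replicate 3 was the lowest HP library in 4 of 5 genes and in 40.6% of all genes tested. Among the 1041 genes called higher at LP, HP replicate 3 was the lowest HP library in 53.6% and LP replicate 3 the lowest LP library in 50.8%. In that group LP replicate 2 was the highest LP library in 29.1%, and the full order was seen in 20.2%. These shares describe single libraries, and what set LP replicate 2 apart was not tested.

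Over the 6 libraries, Glyma.11G157100 and the CAMTA gene had the most similar profiles of any pair among the 5. The root mean square difference of their centred log2 profiles was 0.184, against 0.336 to 0.686 for the other pairs of genes with higher levels at LP. Among all genes tested, the closest to Glyma.11G157100 were Glyma.19G198700 (0.0888) and Glyma.15G258100 (0.17), and the closest to the CAMTA gene were Glyma.15G258100 (0.13) and Glyma.11G077300 (0.136). Glyma.15G258100 encodes an uncharacterized protein, and Glyma.11G077300 encodes a calcium-dependent protein kinase 28-like protein, one of the kinases that carry their own EF-hands. For Glyma.17G128900 the closest genes were Glyma.06G178000 (0.278) and Glyma.10G148700 (0.312), both uncharacterized, at larger distances than the closest genes of the other 4. Annexin D5 was closest to Glyma.14G131400 (0.11), which encodes a hypothetical protein, and to Glyma.01G177500 (0.111), which encodes a homeobox-leucine zipper protein ATHB-40-like. The calmodulin-like protein 1-like gene was closest to Glyma.10G192600 (0.0849) and Glyma.09G053700 (0.102), which have no description in the sources used here. Profile likeness over 6 libraries is mostly set by the difference between treatments and carries no test.

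The genes next to each of the 5 were then examined. They were taken by position and not by their response, but this comparison was chosen after the data were seen. Genes were called where the Benjamini-Hochberg adjusted p of limma on log2(FPKM + 0.1) was 0.05 or less and the difference at least 2-fold, which held for 7.73% of all genes tested, 3.34% higher and 4.39% lower at LP. Of the 20 listed neighbours, 2 on each side of each gene, 15 were tested. Calls were made for 2 neighbours, both higher at LP, and both lay beside annexin D5. The nearer one, Glyma.05G247900, is the gene that the paper names GmPAP9, and its best protein match is described as purple acid phosphatase 17. Purple acid phosphatases release phosphate from organic compounds, and PAP17 of Arabidopsis is induced by Pi starvation. It lies 1157 bases from the annexin gene on the same strand, and had 63.6, 61.5 and 56.2 FPKM in LP replicates 1, 2 and 3, against 12.4, 12.7 and 11.4 FPKM in HP replicates 1, 2 and 3. Its log2 difference was 2.30 ± 0.10 (SE, n = 3 each, limma adjusted p = 9.9e-06). The next gene on that side, Glyma.05G247800, is named GmPAP10 in the paper, so both called neighbours are purple acid phosphatase genes, and both stand in the study's list of differing genes. Its protein match is described only as an uncharacterized precursor, and it lies on the same strand, 5953 bases from the annexin gene. It had 83.4, 72.6 and 71.7 FPKM at LP, against 17.9, 10.97 and 19.4 FPKM at HP, a log2 difference of 2.27 ± 0.21 (limma adjusted p = 0.00045, n = 3 each). The annexin gene and these neighbours therefore form a run of 3 adjacent same-strand genes that were higher in all LP libraries than in any HP library. On the other side, Glyma.05G248100 and Glyma.05G248200 stayed below 0.2 FPKM in every library. Reads running from 1 gene into the next were not tested.

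**Figure D4:**
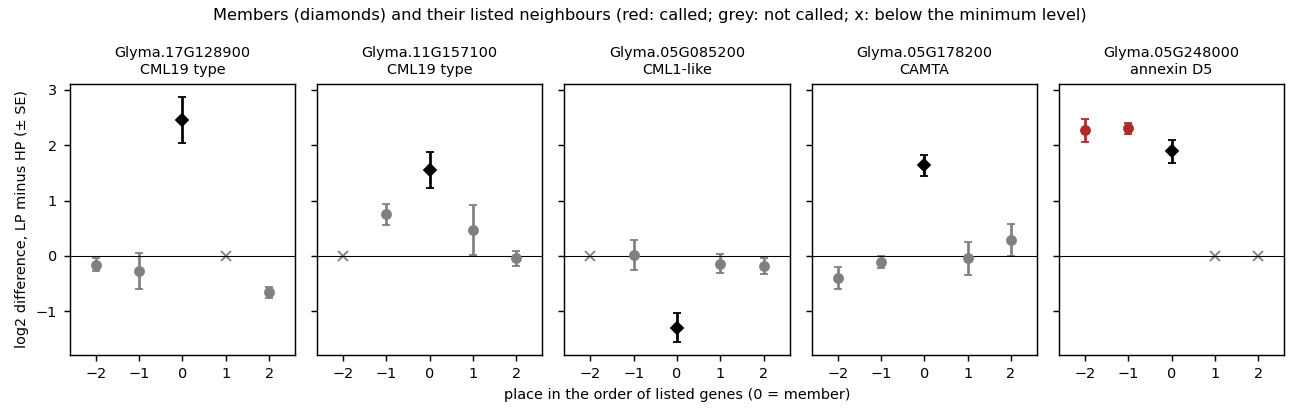
Log2 difference, LP minus HP (vertical axis, ± SE), of each gene (black diamonds) and of the 2 listed genes on each side (circles), by place in the order along the chromosome. Red circles mark called genes, grey circles genes that were not called, and crosses drawn at 0 mark neighbours below the minimum level, which have no value. The 2 red circles are both beside annexin D5, at 2.27 and 2.30.

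No neighbour of the CAMTA gene was called, and their log2 differences were -0.40 ± 0.20, -0.11 ± 0.10, -0.05 ± 0.30 and 0.29 ± 0.29 (SE) for Glyma.05G178000, Glyma.05G178100, Glyma.05G178300 and Glyma.05G178500. Glyma.05G178100 runs toward it on the opposite strand and ends 569 bases away, and had 10.1, 10.9 and 10.2 FPKM at LP, against 12.2, 11.3 and 10.2 FPKM at HP (log2 difference -0.11 ± 0.10, limma adjusted p = 0.47, n = 3 each). Around the genes of the CML19 type, 2 neighbours had an adjusted p under 0.05 with less than a 2-fold difference. These were Glyma.17G129100, with a log2 difference of -0.66 ± 0.10 (limma adjusted p = 0.0040), and Glyma.11G157000, with 0.75 ± 0.19 (limma adjusted p = 0.027). Neither was called. LP and HP values did not overlap in 4 of the 15 tested neighbours and in 44.5% of all genes tested. The 5 genes themselves are not clustered, as the 3 on chromosome 5 are separated by 21.1 and 5.47 megabases.

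Other genes of the same families were taken from the descriptions in the study's list of differing genes, the only source of descriptions at hand. Only 1764 entries of that list were read, which do not cover all of it. The list holds genes chosen for a difference in these libraries, so the counts describe it and are not independent evidence of direction. Apart from the 5 genes, these entries describe 6 genes of calmodulin-like or related calcium-binding proteins, 1 annexin, no calmodulin and no other CAMTA. All 7 were tested, of which 4 were called higher at LP, 1 was called lower and 2 were not called. Over all genes tested, 3.34% were called higher and 4.39% lower. Their median log2 difference was 1.34, beside -0.18 over all genes tested. The count of family genes called higher was between 0 and 4 when 1 library at a time was left out, with 0 without LP replicate 1, 1 without LP replicate 2 or HP replicate 3 and 2 without HP replicate 1 or HP replicate 2.

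Calmodulin-like genes other than those of the CML19 type moved in both directions. Glyma.06G171100, described as CML38-like, had 7.0, 12.8 and 4.76 FPKM in LP replicates 1, 2 and 3, against 3.57, 1.68 and 2.48 FPKM in HP replicates 1, 2 and 3 (log2 difference 1.58 ± 0.39, limma adjusted p = 0.026, n = 3 each). CML38 of Arabidopsis is induced by low oxygen. Glyma.02G245700, described as CML18-like, had 7.82, 13.4 and 8.05 FPKM at LP, against 2.91, 6.23 and 2.38 FPKM at HP (log2 difference 1.40 ± 0.37, limma adjusted p = 0.032, n = 3 each). In both, LP replicate 2 was again the highest LP library. Glyma.12G217700, described as PBP1-like after a calcium-binding partner of the PINOID kinase in Arabidopsis, rose with a log2 difference of 1.28 ± 0.31 (limma adjusted p = 0.022, n = 3 each). Glyma.07G229500, described as CML45-like, had 3.62, 1.03 and 1.58 FPKM at LP, against 6.39, 9.39 and 4.39 FPKM at HP. It fell with a log2 difference of -1.76 ± 0.45 (limma adjusted p = 0.029, n = 3 each). The call of each of these 4 genes was lost when some single libraries were left out, with adjusted p up to 0.099 in those fits for the CML18-like gene, 0.073 for the CML38-like gene, 0.066 for the PBP1-like gene and 0.085 for the CML45-like gene.

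Further genes of the CML19 type were more variable. Glyma.04G136200, which shares its protein match with Glyma.11G157100, had 9.03, 9.26 and 2.01 FPKM in LP replicates 1, 2 and 3, against 2.39, 2.06 and 1.63 FPKM in HP replicates 1, 2 and 3. LP replicate 3 lay within the HP range, as the lowest LP library did for no other gene of the CML19 type but Glyma.05G047100. The log2 difference of 1.43 ± 0.55 was not called (limma adjusted p = 0.098, n = 3 each), and without LP replicate 3 it was 2.13 (limma adjusted p = 0.0011). Glyma.05G047100, described as CML19-like, had 0.924, 4.42 and 3.03 FPKM at LP, against 1.16, 1.63 and 0.313 FPKM at HP, with overlapping groups (log2 difference 1.34 ± 0.69, limma adjusted p = 0.19, n = 3 each).

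A second annexin D5 gene, Glyma.08G056500, was far more abundant than Glyma.05G248000 and changed less. It had 61.4, 50.4 and 48.9 FPKM in LP replicates 1, 2 and 3, against 27.0, 24.5 and 27.4 FPKM in HP replicates 1, 2 and 3. It rose with a log2 difference of 1.02 ± 0.12 (limma adjusted p = 0.0010, n = 3 each), just past the 2-fold limit, and its call was lost at 0.91 without LP replicate 1 and at 0.97 without HP replicate 2. Whether the differences of the 2 annexin genes differ from each other was not tested, since Glyma.05G248000 was chosen by its own.

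**Figure D5:**
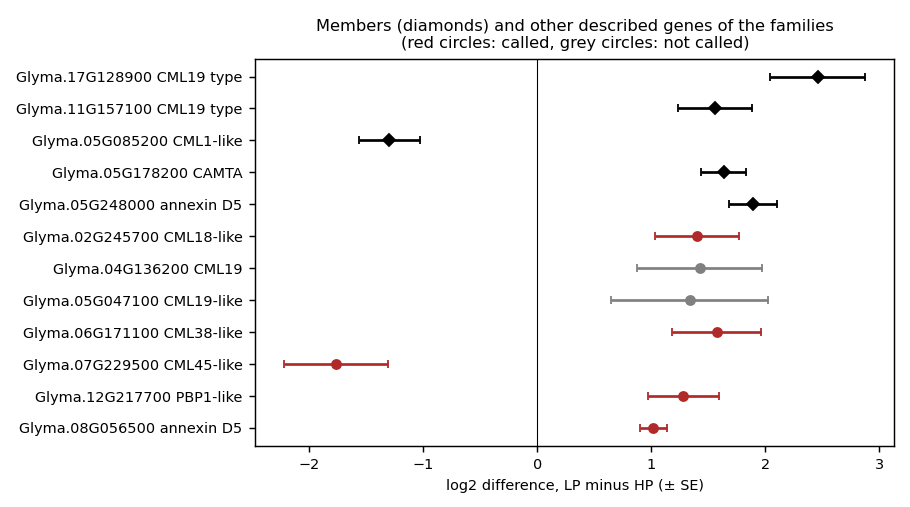
Log2 difference, LP minus HP (horizontal axis, ± SE), of the 5 genes (black diamonds) and of the other described family genes (red circles called, grey circles not called). Only the calmodulin-like protein 1-like gene, at -1.30, and the CML45-like gene, at -1.76, lie left of 0.

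Proteins that act beside these sensors were described in the same list. Glyma.17G149000 encodes a calcineurin B-like protein 1-like sensor, which in Arabidopsis recruits protein kinases to the membrane, and had 3.30, 3.00 and 1.64 FPKM at LP, against 0.595, 0.403 and 0.425 FPKM at HP (log2 difference 2.21 ± 0.31, limma adjusted p = 0.0024, n = 3 each). For the kinases that such sensors activate, 3 genes were described and 0 of the 2 tested genes were called, with log2 differences of 0.97 ± 0.19 for Glyma.18G054600 (limma adjusted p = 0.010) and 0.84 ± 0.13 for Glyma.01G131500 (limma adjusted p = 0.0039), both under 2-fold. The remaining kinase gene of that group, Glyma.15G197300, was under the minimum level and not tested, with 0.031, 0.146 and 0.145 FPKM at LP, against 0.362, 0.582 and 0.529 FPKM at HP. Its LP libraries were all below its HP libraries, the opposite order to the other 2 kinase genes of that group. These values rest on 1, 5 and 5 fragments at LP and 12, 19 and 18 at HP. Of 4 calcium-dependent protein kinase genes, 2 were called higher and 1 lower, beside 3.34% and 4.39% of all genes tested. These kinase genes too come from a list selected for a difference. The highest in level, Glyma.11G077300 (calcium-dependent protein kinase 28-like), had 32.9, 38.0 and 24.3 FPKM at LP, against 13.6, 11.04 and 10.5 FPKM at HP (log2 difference 1.42 ± 0.18, limma adjusted p = 0.0016, n = 3 each). Glyma.14G222000 (calcium-dependent protein kinase 29-like) had 1.00, 0.986 and 0.961 FPKM at LP, against 2.73, 3.12 and 1.86 FPKM at HP (log2 difference -1.27 ± 0.23, limma adjusted p = 0.0068, n = 3 each). Glyma.03G138000 (calcium-dependent protein kinase 32-like) was not called, with 21.4, 28.2 and 11.9 FPKM at LP, against 11.7, 10.7 and 9.02 FPKM at HP (log2 difference 0.89 ± 0.29, limma adjusted p = 0.064, n = 3 each). The order of LP replicate 2, then 1, then 3 seen above was also found in 3 of these 4 kinase genes.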

How the data were processed

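Per the labels and the methods of the paper, reads of 3 LP and 3 HP nodule libraries were aligned by the authors to the Williams 82 assembly (a2.v1) with HISAT2 2.1.0, on an index built with Bowtie2 2.2.3 and with at most 1 mismatch, and the authors deposited FPKM values estimated with Cufflinks 2.2.0. The authors tested differences with DESeq2 1.6.3. A gene not listed in a library was taken as 0. Values were analysed here as log2(FPKM + 0.1) with limma 3.58.1 (R 4.3.3, trended and robust variance), for genes with at least 0.5 FPKM in 3 libraries, with two-sided p-values adjusted by Benjamini-Hochberg. The code was tested on simulated data. Whole fragments were recovered from the FPKM steps (relative tolerance 1e-06) for all 39712 genes. They are the smallest whole numbers that fit, so true counts may be a multiple, and the exact Poisson intervals (95%) cover counting error only. Genes were named by fixed rules (highest mean level or largest called difference in each list, closest profiles). The 2 family genes that were not called and all neighbours were named after their values were seen. Glyma.12G217700 and Glyma.15G197300 also fell outside the fixed rules. The members and lists were chosen with earlier results of these data known. Kinases, sensors and family genes were found by their description in the 1764 entries used of the study's list of differing genes. No protein or promoter sequences were used here.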

Additional observations from a re-analysis of the deposited data

How the results depend on the processing

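The sign of the difference of each of the 5 genes held in all 14 alternatives (another constant, minimum, scaling or variance model, the replicate block, and each library left out). An added constant of 1 shrank it by more than the replicate SD for Glyma.11G157100 (to 1.06), Glyma.05G085200 (to -0.91) and Glyma.05G248000 (to 1.30) on the log2 scale. With each library left out in turn, log2 differences were 2.07 to 2.78 for Glyma.17G128900, 1.23 to 1.91 for Glyma.11G157100, -1.46 to -1.03 for Glyma.05G085200, 1.42 to 1.83 for Glyma.05G178200 and 1.71 to 1.99 for Glyma.05G248000.

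Genes called lower over all genes numbered 1370, but 602 with a constant of 1, 676 with median-of-ratios scaling and 806 with quantile normalization. Those called higher numbered 1041, against 751, 1404 and 1298 in the same 3 fits, so that the share of higher calls was 43.2% and became 55.5%, 67.5% and 61.7%. Family genes called higher were 2 with a constant of 1 and 0 to 4 with a library left out, and those called lower were 0 to 1 with a library left out (0 without LP replicate 2, LP replicate 3, HP replicate 1 or HP replicate 2). The cause was not tested. The 2 called neighbours of annexin D5 were called in all 14 alternatives, which for neighbours were chosen after seeing the data.

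No sign was seen that replicate numbers pair the samples. The deviations of same-numbered libraries correlated at 0.17, -0.0198 and -0.153, and those of differently numbered libraries at -0.185 to 0.195. With the replicate block, 1046 genes were called higher and 1288 lower, the log2 difference of Glyma.17G128900 stayed at 2.46, and in the families 4 were again called higher and 1 lower, with Glyma.04G136200 gained (adjusted p = 0.049) and Glyma.06G171100 lost (adjusted p = 0.052). The HP levels of 3 of the 5 genes rest on 13 to 29 fragments per library, which limits their folds.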

Other observations

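WRKY transcription factors are a plant family many of whose members respond to wounding and defence signals. Among the 1764 entries read of the study's list of differing genes, 10 genes were described by this name. These entries do not cover the whole list, and the paper counts more WRKY genes than these 10 among its differing genes. All 10 were tested, of which 3 were called higher at LP, 1 was called lower and 6 were not called, and the median log2 difference was 1.11. The shares over all genes tested were 3.34% called higher and 4.39% lower. Since the list was selected on these libraries, the counts are a description. Glyma.07G023300, a probable WRKY40-like gene, had 34.0, 25.8 and 29.4 FPKM in LP replicates 1, 2 and 3, against 13.2, 10.6 and 2.94 FPKM in HP replicates 1, 2 and 3 (log2 difference 1.97 ± 0.51, limma adjusted p = 0.029). HP replicate 3 was the lowest library of all for this gene. Glyma.09G274000, a probable WRKY70-like gene, had 14.8, 10.4 and 7.97 FPKM at LP, against 32.4, 35.5 and 19.6 FPKM at HP (log2 difference -1.39 ± 0.28, limma adjusted p = 0.013). LP replicate 2 was the highest LP library in 3 of the 10 WRKY genes.

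A cyclic nucleotide-gated ion channel 18-like gene, Glyma.06G077300, and a gene for a calmodulin-binding IQ-DOMAIN 14 protein, Glyma.11G149200, were below the minimum level and were not tested. The channel gene had 0.112, 0.233 and 0.105 FPKM at LP, against 0.721, 0.554 and 0.319 FPKM at HP. The IQ-DOMAIN gene had 0.0732, 0.023 and 0.0915 FPKM at LP, against 0.190, 0.265 and 0.555 FPKM at HP. Fragments were few, at 5, 11 and 5 at LP and 33, 25 and 15 at HP for the channel gene. For the IQ-DOMAIN gene they were 3, 1 and 4 at LP and 8, 11 and 24 at HP. Both genes come from the study's list of differing genes, so a difference was a condition of finding them.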
